A study of Homo sapiens and Mus musculus with 12 samples.

Results

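The human pancreatic ductal adenocarcinoma (PDA) cell line HPAF-II was profiled by CUT&RUN, an assay in which an antibody directs a nuclease to chromatin and the released fragments are sequenced. GATA6 peaks that lay close together formed 98 clusters with 566 peaks, out of 10670 peaks in the GATA6 list (5.30%). Members were chosen by the measured positions of the GATA6 peaks alone. Neighbouring peaks were joined up to a fixed limit on the gap between their edges (the largest gap joined was 12497 bp), groups of 5 or more peaks were kept, and groups on the mitochondrial genome or within 1 Mb of a centromere band were left out. That last step removed 6 groups with 41 peaks. Such clusters resemble super-enhancers in layout only. The list carries no height, score or histone mark, so the name could not be checked and they are called clusters here.

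Per the labels, 3 HPAF-II libraries used an antibody against GATA6 and 3 an antibody against the HA tag of an introduced human SPDEF. The GATA6 libraries came from the same HA-SPDEF cells, so neither list describes cells without the tagged factor. The labels do not say whether the cells are a clone or a pool. Only 1 peak list per target was used, which holds positions and nothing on single libraries or on depth. No difference could therefore be set against a spread between replicates. Shares carry 95% Wilson intervals, differences between shares carry Newcombe intervals and densities carry exact Poisson intervals, which cover counting error only.

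GATA6 is a zinc-finger transcription factor that binds DNA at GATA motifs and takes part in the formation of endoderm organs such as the pancreas and gut. In PDA it is used as a marker of the classical, more epithelial subtype. SPDEF is an ETS-family factor known for its part in goblet cells and other mucus-secreting epithelia. Dense groups of binding sites for such factors often lie at enhancers of genes that define a cell's identity, which is why their positions and their sharing with a second factor are of interest.

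Small clusters made up most of the set. There were 54 clusters of 5 peaks, 24 of 6, 10 of 7, 8 of 8 and 2 of 9. Their spans ran from 2.62 to 51.6 kb with a median of 17.2 kb and an upper quartile of 23.6 kb, and added up to 1824 kb. Peaks covered 322 kb of this, or 17.7% of the summed span, and between 7.47 and 76.7% of single clusters. Just inside the limit, the 54 clusters of 5 peaks had a median span of 15.1 kb and a median of 2715 bp under peaks. Just outside it, the 137 groups of 4 peaks had 11.1 kb and 1994 bp.

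Many neighbouring peaks in the clusters lay very close to each other. Of the 468 gaps between neighbours, 140 (29.9%) were under 500 bp and 53 under 200 bp, with a median of 1862 bp. When peaks less than 500 bp apart were counted as 1 peak, 47 clusters remained in place of 98, and 33 when the limit was 1 kb. Whether such neighbours are separate binding sites or pieces of 1 broad signal was not tested. Peaks of 1 to 99 bp made up 41 of the 566, and with all peaks under 100 bp left out before joining there were 82 clusters.

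**Figure D1:**
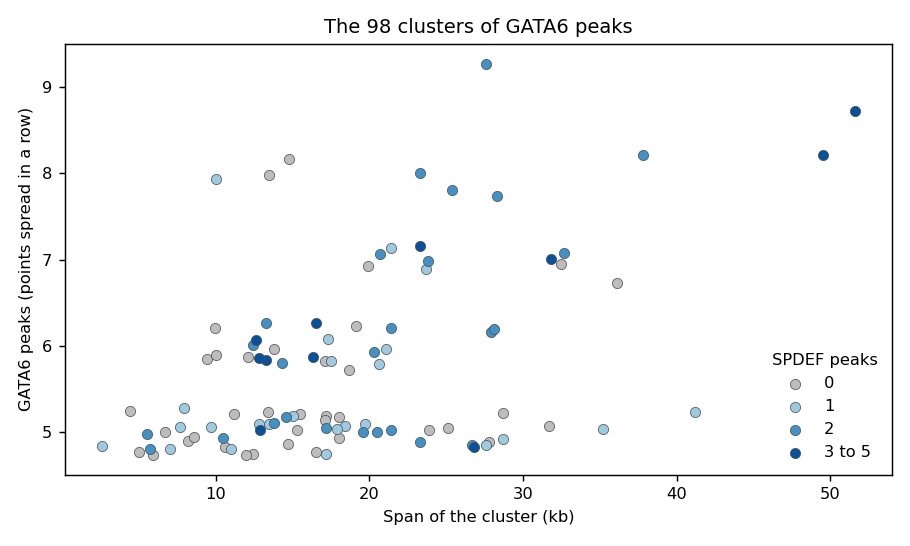
Each point is 1 of the 98 clusters, with its span in kb on the horizontal axis, its number of GATA6 peaks on the vertical axis (points are spread within a row) and its number of SPDEF peaks as colour. Of the clusters, 54 hold 5 peaks and 24 hold 6, and clusters with 0 SPDEF peaks (37) occur at sizes from 5 to 8.

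The largest clusters by number of peaks lay on chromosomes 14 and 12. The cluster of 14q21.3 (chr14:50439322-50490929, hg19) held 9 GATA6 peaks of 244 to 1158 bp over 51.6 kb, the longest span of all. Its 3 SPDEF peaks (chr14:50439415-50439696, chr14:50442225-50442826 and chr14:50470002-50470512) each overlapped a GATA6 peak, and the widest GATA6 peak carried none. This band is that of SOS2, an exchange factor that activates RAS. The cluster of 12p12.1 (chr12:26253895-26281507) held 9 peaks over 27.6 kb, and 4 of these were 1446 to 1661 bp wide. Its SPDEF peaks of 781 and 1037 bp lay on the GATA6 peaks of 1460 and 1661 bp, the 2 widest there. The islet hormone gene IAPP belongs to this band.

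Clusters of 8 peaks differed in how many SPDEF peaks they held. The cluster of 1q32.1 (chr1:201977019-202026545) spread 8 peaks over 49.5 kb, with 4 SPDEF peaks on 4 GATA6 peaks, among them the widest (1486 bp). Its band has 107 protein-coding genes, including ELF3, an epithelial ETS factor, the gastric protease gene CTSE and the nuclear receptor gene NR5A2. The cluster of 8q22.1 (chr8:95203973-95232285) lies in the band of the intestinal cadherin gene CDH17 and of ESRP1, an epithelial splicing regulator. Its 8 peaks over 28.3 kb held 2 SPDEF peaks. Of these, 1 overlapped a GATA6 peak and the other was 26 bp wide. The cluster of 11q12.1 (chr11:57545336-57568633), in the band of the p120 catenin gene CTNND1, held 8 GATA6 peaks and 2 SPDEF peaks over 23.3 kb. The cluster of 12p11.21 (chr12:31884999-31910412), in the band of the desmosomal gene PKP2, held as many over 25.4 kb, and so did a cluster of 14q23.3 (chr14:65155955-65193734) over 37.8 kb. In 2q33.1 (chr2:201238574-201248617) 8 peaks within 10.0 kb held 1 SPDEF peak. By contrast, the 8 peaks of 11q24.1 (chr11:122007668-122022501) and of 1q42.3 (chr1:234735836-234749368), over 14.8 and 13.5 kb, held 0.

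**Figure D2:**
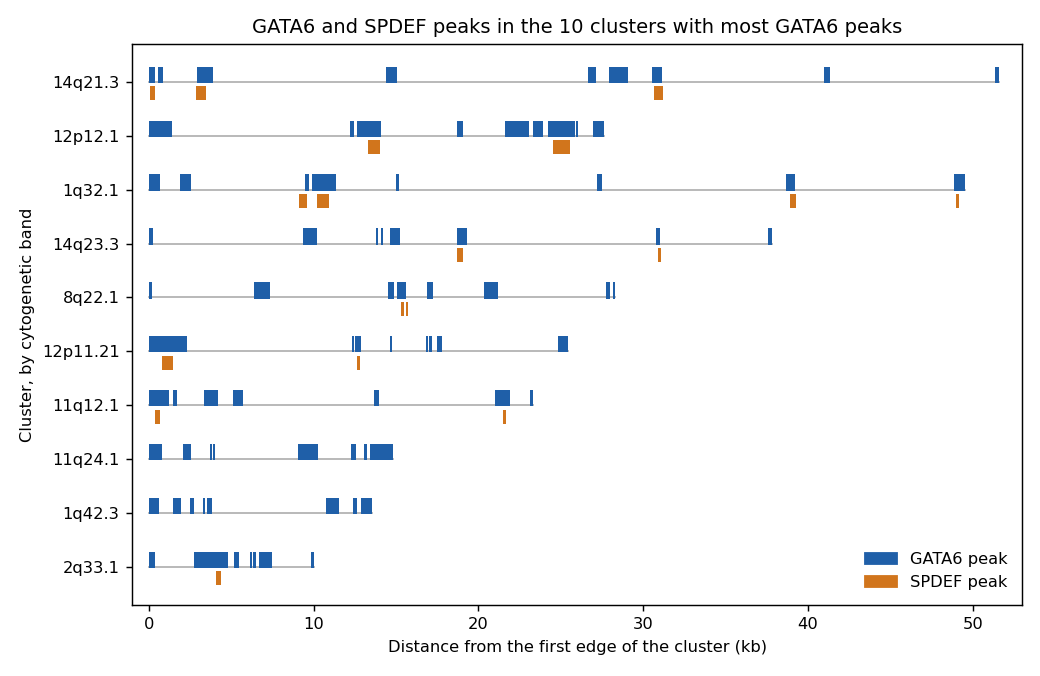
The 10 clusters with most GATA6 peaks are drawn to scale from their first edge (kb), with GATA6 peaks above and SPDEF peaks below each line (peaks under 0.12 kb are drawn at that width). The 14q21.3 and 1q32.1 clusters reach 51.6 and 49.5 kb, and no SPDEF peak is seen in 11q24.1 or 1q42.3.

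Genes were named by cytogenetic band only, because the gene table follows GRCh38.p14 while the peaks are placed on hg19. A gene named beside a cluster therefore shares its band and may lie megabases away. The clusters fell in 83 bands with 3 to 110 protein-coding genes each (median 16 over clusters).

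SPDEF peaks were present in most clusters but not in all. In the clusters lay 117 of the 2775 SPDEF peaks (4.22%, 3.53 to 5.03), and 61 of 98 clusters held at least 1 (62.2%, 52.4 to 71.2). No SPDEF peak was found in 37 clusters, 1 in 24, 2 in 26, 3 in 5, 4 in 4 and 5 in 2. Over all 7542 joined groups outside the mitochondrial genome and centromere regions, those of a single peak included, 19.4% held an SPDEF peak. A cluster with more peaks has more chances to hold one, and the share of groups with SPDEF was 15.1% for single peaks, 27.3% for groups of 2, 38.4% for 3, 42.3% for 4, 55.6% for 5, 66.7% for 6 and 75% for 7 or more. The share per cluster therefore says little about the clusters as such.

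Counted per GATA6 peak, the sharing was close to that of the whole list. Of the 566 clustered peaks 100 shared at least 1 bp with an SPDEF peak (17.7%, 14.7 to 21.0), against 1617 of 10104 other GATA6 peaks (16.0%, 15.3 to 16.7) and 16.1% of all GATA6 peaks. The difference of 1.66 percentage points had an interval of -1.35 to 5.09, which includes 0. Unlike the clusters, the other peaks include those on the mitochondrial genome and near centromeres. The effect of this on the difference was not computed. The same holds for the other sharing rules below, and for other peaks by chromosome and under changed settings. The shares by size of group leave those regions out. By size of group the share was 15.1% for single peaks, 16.0% for 2, 16.4% for 3, 15.5% for 4, 15.2% for 5, 19.4% for 6 and 20.4% (14.8 to 27.5) for 7 or more. The difference varied with the sharing rule and with how peaks were counted. With midpoints within 1 kb counted as shared, 22.1% of clustered peaks and 18.0% of other peaks qualified (18.2% of the list), a difference of 4.12 points (0.81 to 7.80). Under this rule 1 SPDEF peak can count for several closely set GATA6 peaks. Clusters were chosen for such peaks (39.3% of their gaps were under 1 kb), so this difference may follow in part from the rule. With at least 50% of both peaks covered the shares were 6.01 and 8.20% (8.09% of the list), a difference of -2.20 points (-3.96 to 0.13). When GATA6 peaks less than 500 bp apart were first counted as 1, the shares were 25.5 and 16.8%, a difference of 8.72 points (3.70 to 14.45). This step makes peaks longer and leaves another set, of 47 clusters with 255 peaks.

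**Figure D3:**
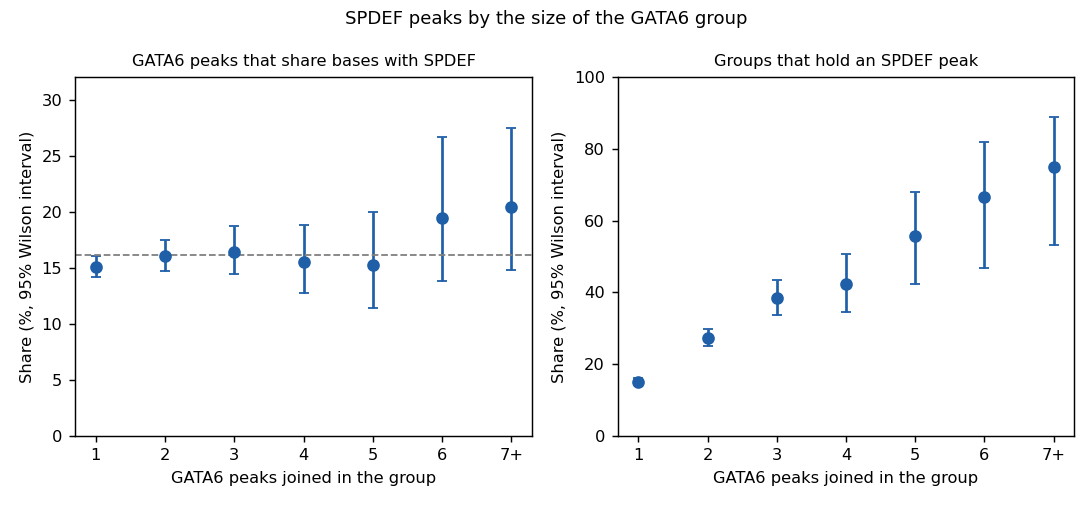
Left, the share of GATA6 peaks that share at least 1 bp with an SPDEF peak, and right, the share of joined groups that hold an SPDEF peak, by the number of GATA6 peaks in the group (points with 95% Wilson intervals, dashed line at the 16.1% of the whole list). Per peak the shares stay between 15.1 and 20.4% with overlapping intervals, while per group they go from 15.1 to 75%.

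Within the clusters, SPDEF lay more often on the widest peak than on the others. Of the 98 widest peaks, 38 carried SPDEF (38.8%, 29.7 to 48.7), against 62 of the 468 other clustered peaks (13.2%, 10.5 to 16.6). The difference was 25.53 points (15.87 to 35.80), and 20.19 points (10.38 to 30.61) with midpoints within 1 kb. Under the rule that 50% of each peak be covered the shares were 5.10 and 6.20%. That rule cannot test the difference, since SPDEF peaks in clusters had a median width of 272 bp (upper quartile 411 bp). A peak of such width cannot cover 50% of a GATA6 peak at the median width of the widest peaks. The widest peaks had a median width of 1229 bp, the other clustered peaks 324 bp. A wider peak has more bases to share, so part of the difference may follow from picking peaks by width. At widths between the quartiles of the widest peaks (956 and 1488 bp), 20 of 48 widest peaks carried SPDEF (41.7%, 28.8 to 55.7), against 11 of 32 other clustered peaks (34.4%, 20.4 to 51.7) and 226 of 798 peaks outside clusters (28.3%, 25.3 to 31.5). These intervals at like widths overlap one another. Position in the cluster showed no clear difference. SPDEF lay on 69 of 370 inner peaks (18.6%) and on 31 of 196 peaks at the ends of clusters (15.8%), with an interval for the difference of -3.98 to 9.01 points.

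Among the widest GATA6 peaks, clustered peaks carried SPDEF more often than the rest. Over 642 bp, the upper quartile of width, 56 of 175 clustered peaks carried SPDEF (32%, 25.5 to 39.2) against 594 of 2429 others (24.5%, 22.8 to 26.2), a difference of 7.55 points (0.85 to 14.97). Clustered peaks of this class were also wider, with medians of 1016 and 895 bp. Up to 235 bp the shares were 6.34 and 7.32%, from there to 346 bp 8.85 and 12.8%, and from there to 642 bp 18.4 and 17.6%, each with an interval of the difference that includes 0. The widest class was 1 of 4 looked at, and the classes were not split by chromosome. Chromosomes 12, 14 and 20, where SPDEF was shared more often in and out of clusters, held 188 of the 566 clustered peaks. They held 1769 of the 10104 other GATA6 peaks. With 50% of both peaks covered, the widest class gave 4.0 and 5.39%, an interval for the difference of -3.66 to 2.72 points. That rule cannot test the difference here either. An SPDEF peak of median width (272 bp in clusters, 268 bp elsewhere) cannot cover 50% of a peak over 642 bp.

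**Figure D4:**
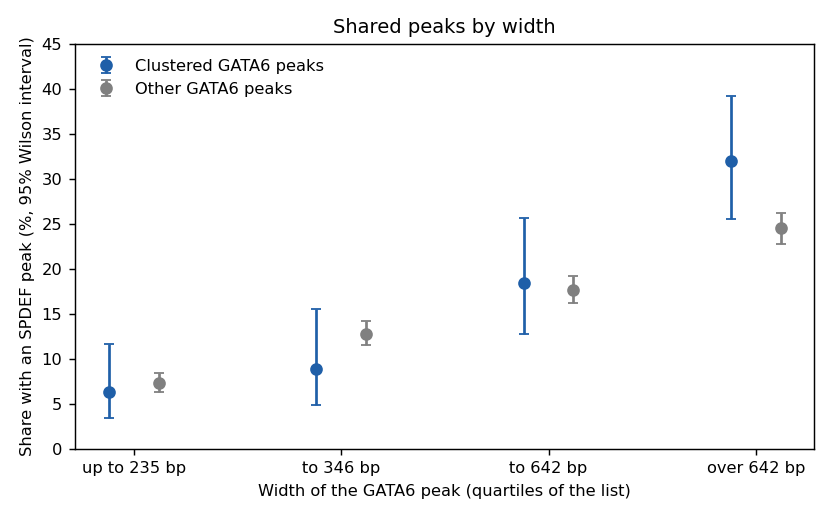
Percentage of GATA6 peaks that carry SPDEF (at least 1 bp shared, 95% Wilson intervals) by quartile of GATA6 peak width, for the clustered peaks (left of each pair) and all other GATA6 peaks outside the mitochondrial genome and centromere regions. Shares are higher in wider quartiles in both sets, and the clustered peaks stand at 32% against 24.5% in the widest.

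SPDEF peaks in the clusters sat almost entirely on GATA6 peaks. Of the 117, 111 overlapped one (94.9%, 89.3 to 97.6), against 64.7% (62.9 to 66.5) of all SPDEF peaks. Clusters were chosen for closely set GATA6 peaks, so a share above that of the whole list follows in part from the rule and is given as a description. The other 6 lay in the 1.5 Mb between GATA6 peaks, or 4.0 per Mb (1.47 to 8.70). Each of these 6 lay within 500 bp of the edge of a GATA6 peak. In the 25 kb on either side of the clusters 5 SPDEF peaks lay off GATA6 peaks, or 1.04 per Mb (0.338 to 2.43), and over the genome 979, or 0.317 per Mb (0.297 to 0.337). Clusters hold more GATA6 peak edges per Mb by construction, so these densities are given as a description only. Counting all SPDEF peaks, the densities were 64.2 per Mb (53.1 to 76.9) in the clusters, 4.34 (2.69 to 6.63) beside them and 0.896 (0.863 to 0.930) over the genome. Cluster spans begin and end on GATA6 peaks by construction, so the first of these densities largely restates the sharing of peaks. SPDEF peaks in clusters had a median width of 272 bp (2 to 1286 bp), and those elsewhere 268 bp (1 to 16522 bp). Each was counted as 1 peak whatever its width. None of the 117 in clusters had both edges within 10 bp of those of a GATA6 peak.

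The clusters with most SPDEF peaks showed different arrangements. In 12p11.23 (chr12:27484105-27497405) 5 of 6 GATA6 peaks carried 1 SPDEF peak each, at chr12:27484521-27484706, chr12:27486465-27487027, chr12:27488960-27489384, chr12:27494097-27494294 and chr12:27496471-27496704. The GATA6 peaks with SPDEF were 787 to 1280 bp wide and the peak without it 277 bp. No other cluster had as many GATA6 peaks with SPDEF. The band has 9 protein-coding genes, ITPR2, INTS13, FGFR1OP2, TM7SF3, MED21, C12orf71, STK38L, BMAL2 and SMCO2. ITPR2 encodes a calcium release channel of the endoplasmic reticulum, and MED21 a subunit of the Mediator complex that links enhancer-bound factors to RNA polymerase.

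In other clusters SPDEF peaks were packed on a broad GATA6 peak. The cluster of 8q24.21 (chr8:128225179-128238035) held 5 SPDEF peaks, 4 of them on the GATA6 peak of 2289 bp and 1 on the peak of 1692 bp. MYC, the growth-promoting transcription factor, is among the 6 protein-coding genes of this band, with LRATD2, POU5F1B, GSDMC, CYRIB and ASAP1. In 12q21.1 (chr12:71546795-71559354) all 4 SPDEF peaks lay on the last of 6 GATA6 peaks, which at 8036 bp was the widest of any cluster and held 83.5% of the bases under peaks there. The other 5 peaks were 48 to 916 bp wide and carried none. TSPAN8, a tetraspanin of the classical PDA subtype, and LGR5, an intestinal stem cell receptor, are among the 11 protein-coding genes of 12q21.1.

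In 14q23.1 SPDEF lay both on and beside the GATA6 peaks. In that cluster (chr14:62020780-62037053) 2 of 4 SPDEF peaks overlapped GATA6 peaks of 221 and 177 bp. The others, at chr14:62027156-62027508 and chr14:62029400-62029600, lay between peaks, and the widest GATA6 peak (962 bp) carried none. In the second cluster of 14q23.3 (chr14:65693848-65725626) all 4 SPDEF peaks lay on GATA6 peaks, 3 of the 7 there. The only cluster with an SPDEF peak but none on a GATA6 peak was that of 7q32.3 (chr7:130571783-130589051), whose band has 3 protein-coding genes, MKLN1, PODXL and PLXNA4. It was singled out after its values were seen.

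The clusters without SPDEF that held most GATA6 peaks were, besides 11q24.1 and 1q42.3, those of 12q21.33, 3q12.3 and 14q13.3, with 7 peaks each. The cluster of 14q13.3 (chr14:36677586-36697476) had peaks of 168 to 976 bp over 19.9 kb. Its band has 6 protein-coding genes, among them NKX2-1, a factor of lung and thyroid endoderm, PAX9, a factor of the foregut and pharynx, and NKX2-8. It was the only cluster of chromosome 14 without an SPDEF peak. The cluster of 12q21.33 (chr12:89318648-89354752) had peaks of 34 to 1606 bp over 36.1 kb, in the band of DUSP6, a phosphatase that inactivates ERK, and of GALNT4, which starts mucin O-glycosylation. That of 3q12.3 (chr3:101881806-101914303) spanned 32.5 kb, in a band with NFKBIZ, a regulator of NF-kappa-B targets. The band 1q42.3 has 12 protein-coding genes, among them IRF2BP2, a transcriptional corepressor, and holds a second cluster 344 kb away with 7 peaks and 1 SPDEF peak.

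The densest clusters were short. The 5 peaks of a 3q25.1 cluster (chr3:149297709-149300329) lay within 2.62 kb, at 1.91 peaks per kb, with gaps of 182 bp at the median and 71.5% of the span under peaks. It held 1 SPDEF peak, on the second widest of its peaks. The 5 peaks of 5q14.3 (chr5:90676390-90680792) lay within 4.40 kb and those of a second 3q25.1 cluster (chr3:149084126-149089119) within 4.99 kb, with median gaps of 342 and 450 bp and no SPDEF peak. Another cluster of 3q25.1, of 6 GATA6 peaks and 3 SPDEF peaks, began 15.4 kb after the last named, just past the joining limit.

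Clusters also lay near each other. In all 19 had another within 500 kb. Besides the 3 of 3q25.1 these were pairs in 12q21.2 (23.3 kb apart), 8q24.12 (58.7 kb), 1q24.3 (88.5 kb), 1q41 (160 kb), 3q27.2 (186 kb), 1q42.3 (344 kb) and 9p21.3 (457 kb), and the pair of 12q15 and 12q21.1 (396 kb).

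Chromosomes 12, 14 and 20 held 31 of the 98 clusters. On chromosome 12, 16 clusters took 96 of 950 GATA6 peaks (10.1%, 8.35 to 12.2), and on chromosome 14, 11 clusters took 70 of 620 (11.3%, 9.03 to 14.0), against 5.30% over the genome. On chromosome 20, 4 clusters took 22 of 387 (5.68%, 3.78 to 8.46). Chromosomes 12, 20 and 14 also had the most GATA6 peaks per Mb, with 7.1, 6.14 and 5.78. The rule joins closely set peaks, and whether the number of peaks per Mb bears on these shares was not tested. On the 3 chromosomes 26 of 31 clusters held an SPDEF peak (83.9%, 67.4 to 92.9), and on the others 35 of 67 (52.2%, 40.5 to 63.7). GATA6 peaks outside clusters showed the same contrast between chromosomes. On chromosomes 12, 14 and 20 24.5% of clustered and 24.8% of other GATA6 peaks carried SPDEF, and on the remaining chromosomes 14.3 and 14.1%. The contrast is not particular to these 3. Chromosome 19, which had no cluster, gave 27.0% (50 of 185), the highest share outside clusters among the remaining chromosomes.

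**Figure D5:**
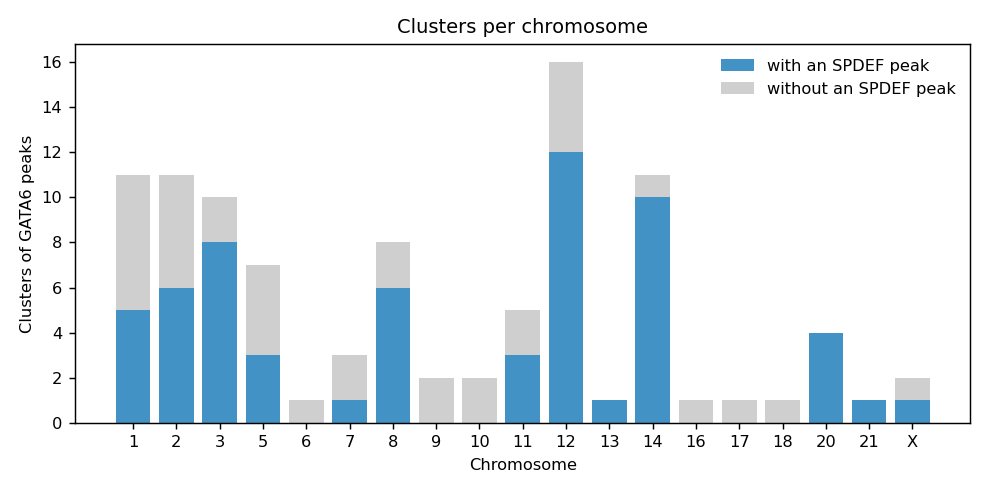
Bars give the number of clusters on each chromosome that has any, split into those with an SPDEF peak (lower, blue) and those without (upper, grey). Chromosome 12 has the most, 16, of which 12 hold SPDEF, while the 8 clusters on chromosomes 6, 9, 10, 16, 17 and 18 hold none.

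On chromosome 12 the clusters not yet described held 5 to 7 GATA6 peaks. SPDEF peaks numbered 2 and 2 in the pair of 12q14.2, 2 in the second cluster of 12q21.1, 2 and 3 in the pair of 12q21.2, and 1 each in 12q13.11, 12q13.12 and 12q23.3. Those of 12p13.1, 12q14.1 and 12q15 held 0. The last lies in the band of the lysozyme gene LYZ, of MDM2, which targets p53 for degradation, and of FRS2, an adaptor of FGF receptors. The narrowest peak of any cluster, 1 bp, was in 12q14.1.

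On chromosome 14 the remaining clusters had 5 to 7 GATA6 peaks. They held 1 SPDEF peak each in 14q24.3 and 14q32.31, 2 in 14q24.1, 3 in 14q11.2, and 1 and 2 in the pair of 14q22.2. The band 14q22.2 has BMP4, a growth factor of endoderm patterning, among its 9 protein-coding genes. In the 14q22.2 cluster with 2 SPDEF peaks, 3 of 5 GATA6 peaks carried them, since an SPDEF peak can span neighbouring GATA6 peaks. On chromosome 20 all 4 clusters held SPDEF. These were 20p12.3 with 7 GATA6 peaks and 2 SPDEF peaks, and 20p13, 20p11.21 and 20q13.13 with 5 and 1 each. The band 20p11.21 is that of FOXA2, a pioneer factor of endoderm, and 20q13.13 that of SNAI1, a repressor of E-cadherin.

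On chromosome 1, SPDEF peaks were in the clusters of 1p36.23 (2), 1p22.3 (3), 1q41 (2 in the cluster of 6 GATA6 peaks) and in those of 1q32.1 and 1q42.3 given above. The clusters of 1p35.2, 1q24.3 (a pair), 1q32.2 and the other of 1q41 held 0. The last band is that of TGFB2, a ligand of the TGF-beta pathway, and of CAPN8, a calpain of the gastric mucosa, while LAMB3, a laminin chain of the basement membrane, belongs to 1q32.2. Chromosome 2 had 11 clusters, of which those besides the first of 2q33.1 had 5 or 6 GATA6 peaks. SPDEF peaks numbered 1 in 2p16.2, 2 in 2q31.3, 2 in 2q32.1, 2 in the second cluster of 2q33.1 and 2 in 2q37.1, and 0 in 2p21, 2p14, 2q22.1, 2q24.2 and 2q31.1. EPCAM, an epithelial adhesion molecule, belongs to 2p21, and ITGA6, a laminin receptor subunit, to 2q31.1. The band 2q22.1 has 6 protein-coding genes, among them the chemokine receptor gene CXCR4.

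On chromosome 3, 8 of 10 clusters held SPDEF. Outside 3q25.1 these had 5 or 6 GATA6 peaks and were 3p24.1 (1 peak), the band of the TGF-beta receptor gene TGFBR2, 3q25.33 (1), the pair of 3q27.2 (2 each), the band of the ETS factor gene ETV5, and the pair of 3q29 (1 each), the band of the membrane mucin genes MUC4 and MUC20. On chromosome 8 the remaining clusters, of 5 or 6 GATA6 peaks, held 1 SPDEF peak in 8p21.2, 2 in 8p12, 2 in 8q12.3 and 2 in the second of 8q24.12, and 0 in 8p11.22 and the first of 8q24.12. DUSP4, a phosphatase of MAP kinases, belongs to 8p12. On chromosome 11 SPDEF peaks numbered 2 in 11q13.3, the band of the cyclin gene CCND1, 1 in 11q22.1, the band of YAP1, an effector of the Hippo pathway, and 0 in 11p14.1.

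On chromosome 5, 3 of 7 clusters held 1 SPDEF peak each, in 5q23.1, 5q31.3 and 5q34, and those of 5q12.1, 5q14.3, 5q15 and 5q32 held 0. The growth factor gene HBEGF and SPRY4, which dampens receptor signalling, belong to 5q31.3. The remaining clusters had 5 or 6 GATA6 peaks. SPDEF peaks numbered 2 in 13q12.2, 1 in 21q22.2 and 2 in Xp11.3, and 0 in 6p25.2, 7q21.11, 7q21.13, 10p11.22, 10q24.33, 16q22.2, 17p11.2, 18q21.32, both clusters of 9p21.3 and Xp22.12. The band 13q12.2 has 12 protein-coding genes, among them PDX1, a factor of pancreas formation, and CDX2, a factor of intestinal identity. Its 5 GATA6 peaks (chr13:28527031-28540854) were 277 to 1256 bp wide. The band of ZEB1, a driver of epithelial-mesenchymal transition, is 10p11.22.

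Gene lists were read against all protein-coding genes, of which 10.7% (2135 of 20037) lie in a band that holds a cluster. Of the endoderm and epithelial transcription factors, 7 of 38 did (18.4%, 9.22 to 33.4), namely FOXA2, PDX1, ELF3, CDX2, NKX2-1, PAX9 and NR5A2. The count was 6 of 34 for classical PDA subtype genes (17.6%), with TSPAN8, LYZ, CTSE, CDH17, ELF3 and CAPN8. Epithelial adhesion and simple keratin genes had 7 of 39 (17.9%), mucins 2 of 14 (14.3%), mucus secretion and goblet cell genes 4 of 34 (11.8%) and epithelial-mesenchymal transition genes 5 of 25.

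Comparison lists were read the same way. The highest share of any list was that of neuronal genes, 9 of 24 (37.5%, 21.2 to 57.3). Blood and immune genes had 3 of 27 (11.1%) and pancreatic acinar and islet genes 3 of 25. Genes of a list can share a band, as MUC4 and MUC20 do, and a band says nothing on which of its genes lies near a cluster. Of the 12 markers of epithelium and classical PDA looked at, EPCAM, TSPAN8 and CTSE were in a band with a cluster. KRT7, KRT8, KRT18, KRT19, CDH1, AGR2, TFF1, LGALS4 and GATA6 itself were not. Of the markers of other cell types, PTPRC, VIM, COL1A1 and PECAM1, 0 were.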

How the data were processed

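Peak lists of 3 GATA6 and 3 HA-SPDEF CUT&RUN libraries from HPAF-II were used, out of 12 libraries in the series. Per the submitters' processing notes, MACS2 2.2.7.1, deepTools, SAMtools 1.14 and Bowtie2 2.4.4 were used, with hg19 and mm10 as builds. The sources used here do not say what each tool did, which control and threshold were set or whether libraries were pooled. The lists deposited by the authors give only chromosome, start and end of each peak, with no score, so depth is unknown and no width or count could be set against replicates. All peaks fitted within hg19 chromosome lengths, while 29 GATA6 and 18 SPDEF peaks ran beyond those of hg38. The mouse list, and the IgG and H3K4me3 libraries, were not used here.

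Peaks were joined where edges lay 12.5 kb or less apart, and overlapped (at least 1 bp), in Python 3.11.15 with numpy 2.4.6, pandas 2.3.3, scipy 1.17.1, statsmodels 0.14.6 and matplotlib 3.10.9. The joining step was tested on simulated peaks. Cytogenetic bands came from circlize 0.4.16 in R 4.3.3. Genes of RefSeq GRCh38.p14 were placed by their midpoints in GRCh38 bands and tied to clusters by band name, and 300 of 301 list genes were placed. Positions count from 1. The clusters, lists and alternatives were chosen with earlier results of these data known. Clusters described in full were the 10 with most GATA6 peaks, the 5 with most SPDEF peaks (ties kept), the 5 without SPDEF with most GATA6 peaks and the 3 with most peaks per kb. All protein-coding genes were looked at for bands with up to 12 of them, a step added after seeing the data. Peaks are not replicates, so no p-value was computed. The results of 2 of the gene lists are not reported here.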

Additional observations from a re-analysis of the deposited data

How the results depend on the processing

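No paired analysis was possible because the GATA6 and SPDEF lists carry no replicate numbers, and for the same reason no library could be left out. Joining peaks less than 200 bp, 500 bp or 1 kb apart before counting was chosen after seeing the data. The number of clusters, 98 as reported, followed the rule itself. It was 43 with a gap of 5 kb, 185 with 25 kb, 235 with a minimum of 4 peaks, 10 with a minimum of 8, 12 with the wider 50% of GATA6 peaks, and 47 and 33 with peaks under 500 bp or 1 kb apart counted as 1.

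The share of clustered GATA6 peaks with SPDEF (17.7%) was 33.8% for the wider 50% of GATA6 peaks (21.5% outside clusters), 14.3% without chromosomes 12, 14 and 20 (14.1% outside), 9.72% with the wider 50% of SPDEF peaks (9.27% outside), 6.01% with 50% of both peaks covered, 22.1% with midpoints within 1 kb, and 25.5 and 25.1% with peaks under 500 bp or 1 kb apart counted as 1 (16.8 and 17.1% outside). The interval of the difference from other peaks did not include 0 for the wider 50% of GATA6 peaks (1.98 to 24.52 points), for midpoints, for the last 2 settings and when only clusters on a centromere band were left out (0.76 to 7.38). In the other 9 settings it included 0. Here too the other peaks included those on the mitochondrial genome and near centromeres.

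The share of clusters with SPDEF (62.2%) was 50.6% with a minimum of 4 peaks, 80.0% with 8, 83.3% for the wider 50% of GATA6 peaks, 52.2% without chromosomes 12, 14 and 20, 43.9% with the wider 50% of SPDEF peaks, and 76.6 and 78.8% with peaks under 500 bp or 1 kb apart counted as 1. SPDEF peaks per Mb (64.2) were 129 with a gap of 5 kb, 36.5 with 25 kb, 92.1 for the wider 50% of GATA6 peaks, 79.2 with only clusters on a centromere band left out, 52.5 without chromosomes 12, 14 and 20 and 32.9 with the wider 50% of SPDEF peaks. Apart from the settings named, the cause of these shifts was not tested.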

Other observations

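SPDEF peaks joined by the same rule gave 373 groups of 2 or more peaks outside the mitochondrial genome and centromere regions. Of these, 31 overlapped a GATA6 cluster, while 4.22% of all single SPDEF peaks lay in one. With 3 or more SPDEF peaks there were 68 groups, 7 of them on a GATA6 cluster. With 4 or more there were 24, 5 of them on a GATA6 cluster, and with 5 or more 7, 2 of them on one. Groups of more peaks have more chances to overlap a cluster, so these counts are a description only. In 30 of the 98 GATA6 clusters at least 2 GATA6 peaks carried SPDEF, where 16.1% of all GATA6 peaks carried it. Clusters of 5 or more peaks have many chances of this. No such share was computed for other groups, so the count is a description only. Chromosomes 4, 15, 19, 22 and Y held 413, 173, 185, 80 and 5 GATA6 peaks and no cluster. In 19 clusters the widest peak held over 50% of the bases under peaks.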
